A study of Mus musculus with 16 samples.

Results

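Mitochondrial chaperones and proteases were described across mouse hearts as a set of 10 genes defined by symbol. These genes were chosen with earlier results of these data known. The set was Hspd1, Hspe1, Hspa9, Dnaja3, Lonp1, Clpx, Clpp, Afg3l2, Spg7 and Htra2. All 10 were present among the 14138 genes of one count table and among the 17831 genes of a second, and all 10 passed the low-count filter in both.

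Total RNA of whole heart samples was sequenced in 4 groups. The first table held 5 wild type libraries and 5 CPT2H-KO libraries, in which carnitine palmitoyltransferase 2 (CPT2), the inner membrane enzyme that prepares long-chain fatty acids for beta-oxidation, was deleted in cardiomyocytes. The second table held 3 CPT2 single KO libraries, whose genotype label was also CPT2H-KO, and 3 CPT2/USP30 double KO libraries. USP30 removes ubiquitin from proteins on the mitochondrial surface and so restrains mitophagy, the clearance of damaged mitochondria. Both groups of the second table therefore carried the CPT2 deletion, and no wild type library was part of it. USP30H-KO hearts are described in the design as Myh6-Cre/USP30fl/fl, a Cre driven by a cardiomyocyte promoter, so that other heart cells kept the gene. The Cre used for CPT2, the deleted exons, and the strain, age and sex of the mice are not stated in the labels. Libraries were labelled as biological replicates, and nothing in the labels says whether hearts shared litters, so the p-values below reflect only how much these samples varied.

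Most mitochondrial proteins are made in the cytosol and enter the matrix unfolded. There the Hsp70 of the matrix (mortalin, Hspa9) pulls them in and, with its J-domain partner Dnaja3, folds them. The barrel of Hsp60 (Hspd1) capped by Hsp10 (Hspe1) completes folding. Lonp1 and the ClpXP complex (unfoldase Clpx, peptidase Clpp) degrade damaged matrix proteins, the m-AAA protease of Afg3l2 and Spg7 (paraplegin) works at the inner membrane, and Htra2 (Omi) works in the intermembrane space. Transcripts of such genes are known to rise in the mitochondrial unfolded protein response, which overlaps with the ATF4 branch of the integrated stress response.

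In the annotation of the mm10 assembly (GENCODE M21 on GRCm38), Hspd1 lies at chr1:55077835-55088243 on the minus strand and Hspe1 at chr1:55088132-55091307 on the plus strand. The pair is arranged head to head, and the gene bodies overlap by 112 bases. Lonp1 lies at chr17:56614297-56626887 (minus) and Clpp at chr17:56990305-56996188 (plus), on the same chromosome. Clpx lies at chr9:65294260-65330658 (plus), Spg7 at chr8:123062942-123097760 (plus), Dnaja3 at chr16:4639989-4707695 (plus) and Htra2 at chr6:83051266-83055273 (minus). Dnaja3 overlaps Coro7 on the other strand and Vasn on its own, Htra2 overlaps Aup1 and Loxl3 on the other strand, and Spg7 lies within Gm20388 on its own strand. Clpx overlaps a pseudogene on the other strand, and Hspa9 holds small nucleolar RNA genes on its own. How reads in shared stretches were counted, and whether by strand, is not stated in the labels. The counts of these genes, and of the Hspd1 and Hspe1 pair, are therefore uncertain.

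RefSeq promoter windows on GRCm38.p6 (250 bases before and 50 bases from the start site) were taken for 7 of the 10 genes, with 8 windows in all because Hspd1 has a pair of start sites. Windows of Hspa9, Afg3l2 and Htra2 were not part of the search, so the motif matches below do not cover these genes. A pair of windows is shown: the one from which Hspe1 and Hspd1 are read in opposite directions, since these transcripts moved differently, and that of Lonp1, one of the 2 members with the largest increase. The Hspe1 window spans chr1:55087898-55088197 on the plus strand. It shares 285 bases with the window of one Hspd1 start site, which lies 216 bases away. Capitals mark a heat shock element pair (GAANNTTC) and the core of the element bound by estrogen-related receptors (AAGGTCA). The Lonp1 window spans chr17:56626854-56627153 and is shown along the minus strand, the direction in which the gene is read. Capitals mark a cAMP response element (TGACGTNA), the motif family bound by ATF proteins.
Hspe1: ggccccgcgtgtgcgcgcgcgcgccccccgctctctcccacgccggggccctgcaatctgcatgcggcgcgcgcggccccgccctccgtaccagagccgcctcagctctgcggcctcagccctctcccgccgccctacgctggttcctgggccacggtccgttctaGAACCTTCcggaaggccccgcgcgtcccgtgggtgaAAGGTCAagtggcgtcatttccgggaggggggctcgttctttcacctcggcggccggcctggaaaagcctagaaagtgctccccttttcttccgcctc
Lonp1: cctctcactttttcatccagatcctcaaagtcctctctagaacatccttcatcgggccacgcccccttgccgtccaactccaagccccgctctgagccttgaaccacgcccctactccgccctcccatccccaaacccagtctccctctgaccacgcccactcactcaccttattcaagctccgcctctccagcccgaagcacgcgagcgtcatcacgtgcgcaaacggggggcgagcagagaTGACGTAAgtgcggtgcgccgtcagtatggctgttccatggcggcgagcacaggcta
Both strands of every window were searched for 7 motifs. The heat shock pair occurs in 7.86% of the 32817 mouse promoter windows, the estrogen-related receptor core in 4.72% and the cAMP response element in 2.93%. The ETS motif CCGGAAG, found in 8.86% of all windows, overlaps the heat shock pair in the Hspe1 window. The composite element bound by ATF4 and CHOP, searched as TGATGNAA (3.97% of all windows), had no match in the 8 windows. The NRF1 element (4.59% of all windows) matched in 3 of them, those of Dnaja3, Spg7 and the other Hspd1 start site. CCAAT, the NF-Y box found in 37.4% of all windows, matched in the windows of Dnaja3, Clpx and that other Hspd1 start site. A match describes letters, not binding.

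Levels are given as CPM, read counts scaled to a common library size after TMM adjustment, which sets the bulk of genes level between libraries. Library totals lay between 54674422 and 132762776 counts for wild type and CPT2H-KO hearts and between 11067969 and 13532716 for single and double KO hearts. The lowest count of any of the 10 genes was 353, for Htra2. Cpt2 measured 53.0 to 89.9 CPM in wild type and 30.4 to 44.9 CPM in CPT2H-KO libraries (log2 fold change -0.95, SE 0.15, edgeR quasi-likelihood test, adjusted p = 0.000971). Usp30 measured 18.5, 22.8 and 21.7 CPM in single KO and 10.3, 10.4 and 7.44 CPM in double KO libraries (log2 fold change -1.16, SE 0.18, edgeR adjusted p = 0.147). All 7 cardiomyocyte markers were measured in both tables. In the first table their summed level was 22353 to 24338 CPM in wild type and 17553 to 21726 CPM in CPT2H-KO hearts, with 5 of 7 called lower, while 6 fibroblast markers summed to 670.0 to 1051 and 996 to 1769 CPM, with 3 called higher. Smooth muscle and pericyte markers summed to 495 to 575 CPM in wild type and 363 to 429 CPM in CPT2H-KO hearts, with 2 of 5 called lower. Of the skeletal muscle list only Ckm (called lower) and Acta1 (called higher), both also expressed in heart, were tested, and they summed to 855 to 1081 and 1640 to 2176 CPM. Summed atrial markers ran from 57.1 to 438 CPM in wild type and from 1.16 to 353 CPM in CPT2H-KO libraries. Transcripts of Y-linked genes were near 0 in wild type replicate 1 and in CPT2H-KO replicates 1 and 3. The part of these markers in the results below was not tested beyond the refits named there, and in whole heart RNA fewer cells of a type and less RNA per cell cannot be told apart.

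In CPT2H-KO hearts, 4 of the 10 transcripts rose and none fell: Afg3l2, Lonp1, Hspd1 and, by a small margin, Hspa9. Genes were called at an edgeR p-value under 0.05 after Benjamini-Hochberg adjustment over all genes tested. By that rule 33.7% of all genes were called, 16.7% higher and 17.0% lower. The same 4 members were higher in every CPT2H-KO library than in any wild type library, as were 11.5% of all genes (24.7% were separated in either direction). At an unadjusted edgeR threshold of 0.05, the same count of 4 members passed, against 44.5% of all genes. The median log2 fold change of the 10 was 0.15, against -0.01 for all genes. In 3 of 4 pairs of partner genes, 1 gene rose and the other did not pass the test. For Hspa9 and Dnaja3, among these, the ratio between the partners showed no difference that passed (exact permutation p = 0.706). Mitochondrially encoded transcripts took 57.9% to 63.0% of wild type counts and 61.9% to 68.8% of CPT2H-KO counts. Scaling by library totals alone, which include them, moved the median of all genes to -0.27, and then Lonp1 and Afg3l2 were called higher and Clpp and Spg7 lower.

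**Figure D1:**
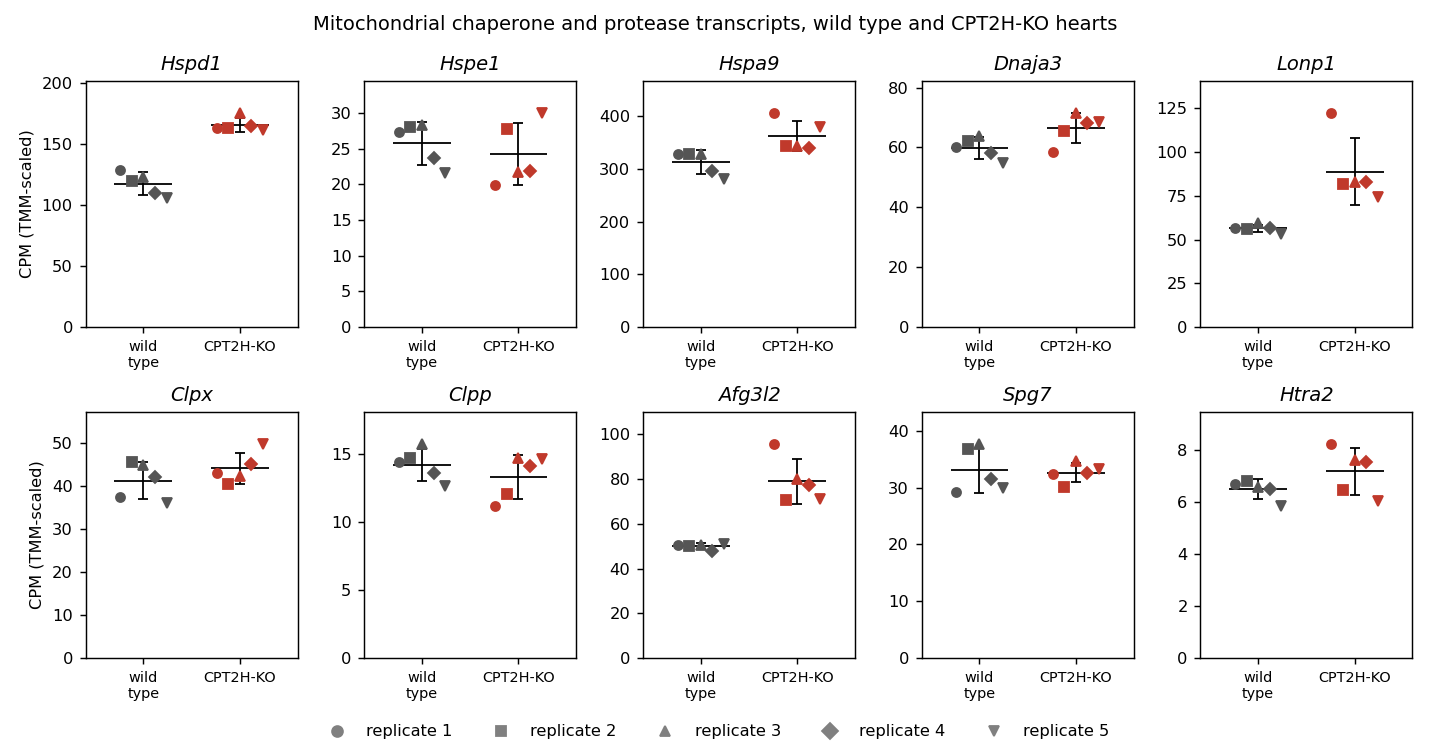
Level of each of the 10 transcripts in TMM-scaled CPM (vertical axes, from 0) in 5 wild type (grey) and 5 CPT2H-KO (red) libraries. Points are libraries, with a marker shape per replicate number, and bars are mean ± SD; Hspd1, Hspa9, Lonp1 and Afg3l2 show no overlap between groups.

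Among the matrix chaperones, Hspd1 showed the tightest separation. Hspd1, the Hsp60 subunit, measured 129, 119.8, 123, 110.1 and 106 CPM in wild type replicates 1 to 5 and 163, 163, 176, 165 and 162 CPM in CPT2H-KO replicates 1 to 5. Every CPT2H-KO library lay above every wild type library, and the 5 knockout values spanned a narrow range. The mean went from 118 ± 9.5 (SD, n = 5) to 166 ± 5.5 CPM (SD, n = 5), a log2 fold change of 0.50 (SE 0.067, 95% interval 0.35 to 0.64, edgeR adjusted p = 0.000387). Scaled by library totals alone, the Hspd1 value was 0.24 and was not called (adjusted p = 0.0761). A pseudogene, Hspd1-ps3, was counted separately at 0.906 to 1.06 CPM in wild type and 1.60 to 1.84 CPM in CPT2H-KO libraries. The sequences of Hspd1 and Hspd1-ps3 were not compared here. How any reads matching both were counted is not stated, so both counts are uncertain.

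Hspe1, the Hsp10 lid that closes the Hsp60 chamber, did not pass the test. Its level was 27.3, 27.9, 28.3, 23.6 and 21.5 CPM in wild type and 19.9, 27.7, 21.7, 21.9 and 30.0 CPM in CPT2H-KO libraries. The groups overlapped, and CPT2H-KO held both the lowest and the highest library of the 10. The log2 fold change was -0.09 (95% interval -0.36 to 0.19, edgeR adjusted p = 0.627). An increase as large as that of Hspd1 lay outside this interval.

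Hspa9, the matrix Hsp70 and import motor (chr18:34937414-34954357, minus strand), was the most abundant of the 10. It measured 328, 329, 328, 296 and 281 CPM in wild type and 405, 343, 344, 339 and 379 CPM in CPT2H-KO libraries. The lowest knockout library lay just above the highest wild type library, and replicate 1 was the highest. Its log2 fold change of 0.21 (SE 0.076, 95% interval 0.05 to 0.38, edgeR adjusted p = 0.0496) was close to the threshold. The call was lost on removal of any 1 of the 10 libraries (log2 fold change 0.17 to 0.24, adjusted p 0.0536 to 0.109), and the value was -0.05 when scaled by library totals alone. It was also lost with a sex term (0.20, edgeR adjusted p = 0.0814) and in libraries with Y-linked transcripts only (0.20, edgeR adjusted p = 0.141), whereas with an atrial covariate the value was 0.33 (edgeR adjusted p = 0.0275). Dnaja3, the J-domain co-chaperone that stimulates the Hspa9 ATPase, measured 60.2, 62.1, 63.9, 58.0 and 54.8 CPM in wild type and 58.6, 65.6, 71.5, 68.1 and 68.6 CPM in CPT2H-KO libraries. Only CPT2H-KO replicate 1 fell within the wild type range. Its log2 fold change was 0.15 (95% interval -0.00028 to 0.30, edgeR adjusted p = 0.113), and 0.19 (adjusted p = 0.0323) without that library.

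Of the matrix proteases, Lonp1 rose and both ClpXP subunits stayed short of the threshold. Lonp1, the ATP-dependent protease that clears oxidised and misfolded matrix proteins, measured 56.4, 56.2, 59.5, 56.5 and 53.3 CPM in wild type and 122, 81.4, 83.1, 82.6 and 74.5 CPM in CPT2H-KO libraries. Replicate 1 stood far above the other knockout libraries, and all 5 exceeded the wild type range. The mean rose from 56.4 ± 2.2 (SD, n = 5) to 88.7 ± 19.0 CPM (SD, n = 5), a log2 fold change of 0.65 (SE 0.12, 95% interval 0.39 to 0.92, edgeR adjusted p = 0.00221). Without CPT2H-KO replicate 1 the log2 fold change of Lonp1 was 0.51 (adjusted p = 0.000155), and scaled by library totals alone it was 0.38, still called.

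Clpx, the unfoldase that feeds substrates to Clpp, measured 37.5, 45.5, 45.0, 42.1 and 36.0 CPM in wild type and 43.0, 40.4, 42.4, 45.0 and 49.8 CPM in CPT2H-KO libraries. Its groups overlapped over most of their range (log2 fold change 0.10, 95% interval -0.09 to 0.29, edgeR adjusted p = 0.395). Clpp, the peptidase barrel, measured 14.4, 14.7, 15.8, 13.6 and 12.7 CPM in wild type and 11.2, 12.1, 14.7, 14.1 and 14.6 CPM in CPT2H-KO libraries. The lowest 2 of the 10 Clpp values were CPT2H-KO replicates 1 and 2, and the rest were mixed (log2 fold change -0.09, 95% interval -0.30 to 0.11, edgeR adjusted p = 0.470).

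At the inner membrane, Afg3l2 (chr18:67404764-67449172, minus strand) rose and Spg7 showed no difference that passed the test. Afg3l2, the subunit that can form the m-AAA protease alone or with Spg7, measured 50.6, 49.9, 50.4, 47.8 and 51.1 CPM in wild type and 95.7, 70.6, 80.2, 77.3 and 71.1 CPM in CPT2H-KO libraries. Wild type libraries were nearly equal, and all knockout libraries lay clear of them. The mean rose from 49.98 ± 1.3 (SD, n = 5) to 79.0 ± 10.2 CPM (SD, n = 5), a log2 fold change of 0.66 (SE 0.084, 95% interval 0.48 to 0.84, edgeR adjusted p = 0.000270). This was the smallest p-value and the largest log2 fold change among the 10 genes. Scaled by library totals alone, the Afg3l2 value was 0.39, still called.

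Spg7, whose human counterpart is mutated in a hereditary spastic paraplegia, measured 29.2, 36.7, 37.7, 31.6 and 29.9 CPM in wild type and 32.4, 30.1, 34.8, 32.6 and 33.2 CPM in CPT2H-KO libraries. All 5 knockout values fell inside the wild type range (log2 fold change -0.02, 95% interval -0.20 to 0.17, edgeR adjusted p = 0.886). Htra2, the serine protease of the intermembrane space, was the least abundant member at 6.70, 6.80, 6.58, 6.48 and 5.83 CPM in wild type and 8.22, 6.47, 7.61, 7.54 and 6.03 CPM in CPT2H-KO libraries. Replicates 1, 3 and 4 of the knockout exceeded all wild type libraries and replicates 2 and 5 did not (log2 fold change 0.14, 95% interval -0.06 to 0.35, edgeR adjusted p = 0.257).

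**Figure D2:**
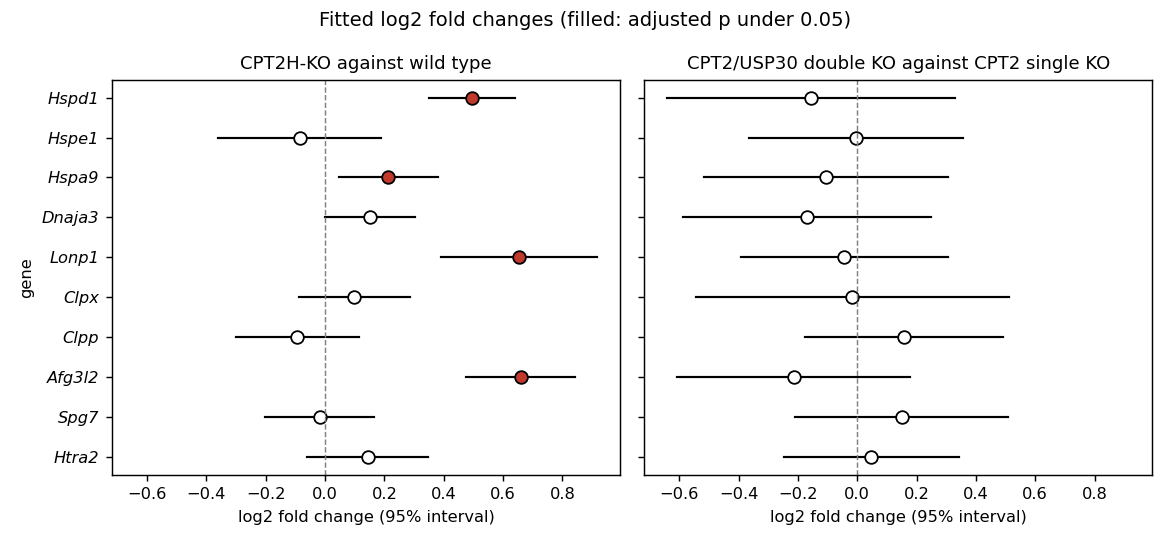
Fitted log2 fold change (horizontal axis) with its 95% interval for each gene, for CPT2H-KO against wild type (left) and CPT2/USP30 double KO against CPT2 single KO (right). Filled points had an adjusted edgeR p under 0.05: 4 on the left (Hspd1, Hspa9, Lonp1, Afg3l2) and 0 on the right.

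CPT2H-KO replicate 1 was the highest of the 5 knockout libraries for Lonp1, Afg3l2, Hspa9 and Htra2 and the lowest for Hspe1, Clpp and Dnaja3. Among the stress genes it was the highest for Aldh18a1, Slc7a5, Pycr1, Atf5 (17.4 CPM, others 10.4 to 11.8), Trib3 (13.0 CPM, others 2.47 to 6.69), Mthfd2 (30.3 CPM, others 12.8 to 18.2) and Asns (21.0 CPM, others 6.35 to 12.5). It was not the highest for Atf4 (60.9 CPM, against 74.1 CPM in replicate 5), Atf3 or Cebpg, which were also highest in replicate 5, or for Gdf15, highest in replicate 3. Without this library Afg3l2 had a log2 fold change of 0.58 and Hspd1 of 0.50, and both were called.

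Ratios of partner transcripts within a library do not depend on the scaling. Exact two-sided permutation tests compared 4 pairs, adjusted over the 4. The pairs were chosen with earlier results of these data known, so these p-values are not independent of the single-gene results. The log2 ratio of Hspd1 to Hspe1 counts was 2.24, 2.10, 2.12, 2.22 and 2.30 in wild type and 3.04, 2.56, 3.01, 2.91 and 2.43 in CPT2H-KO libraries. All knockout libraries had more Hsp60 message per Hsp10 message than any wild type library. The difference was 0.59 on the log2 scale, a 1.51-fold higher ratio (exact permutation p = 0.00794, the smallest that 5 against 5 allows, adjusted p = 0.0159).

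The log2 ratio of Afg3l2 to Spg7 was 0.79, 0.44, 0.42, 0.60 and 0.77 in wild type and 1.56, 1.23, 1.21, 1.24 and 1.10 in CPT2H-KO libraries. These groups did not overlap either, and the ratio was 1.58-fold higher (log2 difference 0.66, exact permutation p = 0.00794, adjusted p = 0.0159). Without any 1 library, both ratios kept an adjusted exact p of at most 0.0317. The log2 ratio of Clpx to Clpp was 1.38, 1.62, 1.51, 1.63 and 1.51 in wild type and 1.94, 1.74, 1.52, 1.67 and 1.77 in CPT2H-KO libraries, which overlapped. It was 0.20 higher (exact permutation p = 0.0317, adjusted p = 0.0423). On removal of wild type replicate 1, 3 or 5 or CPT2H-KO replicate 1, 2, 4 or 5 the difference of 0.15 to 0.21 no longer passed (adjusted exact p 0.0635 to 0.0847). For Hspa9 to Dnaja3, the mean log2 ratio was 2.38 ± 0.040 (SD, n = 5) in wild type and 2.44 ± 0.21 (SD, n = 5) in CPT2H-KO libraries (exact permutation p = 0.706), and the difference of 0.06 was -0.03 without CPT2H-KO replicate 1.

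Transcript length moved with the comparison: genes with a principal transcript under 1000 bases had a median log2 fold change of -0.18 and those of 3500 bases or more one of 0.07. Hspe1 (774 bases) and Clpp (983 bases) were the shortest of the 10, and their partners Hspd1 (2423 bases) and Clpx (2885 bases) are longer. Afg3l2 (3094 bases) and Spg7 (2896 bases) both fall between 2000 and 3500 bases, where the median was -0.02. The part of length in the Hspd1 to Hspe1 and Clpx to Clpp ratios was not tested.

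**Figure D3:**
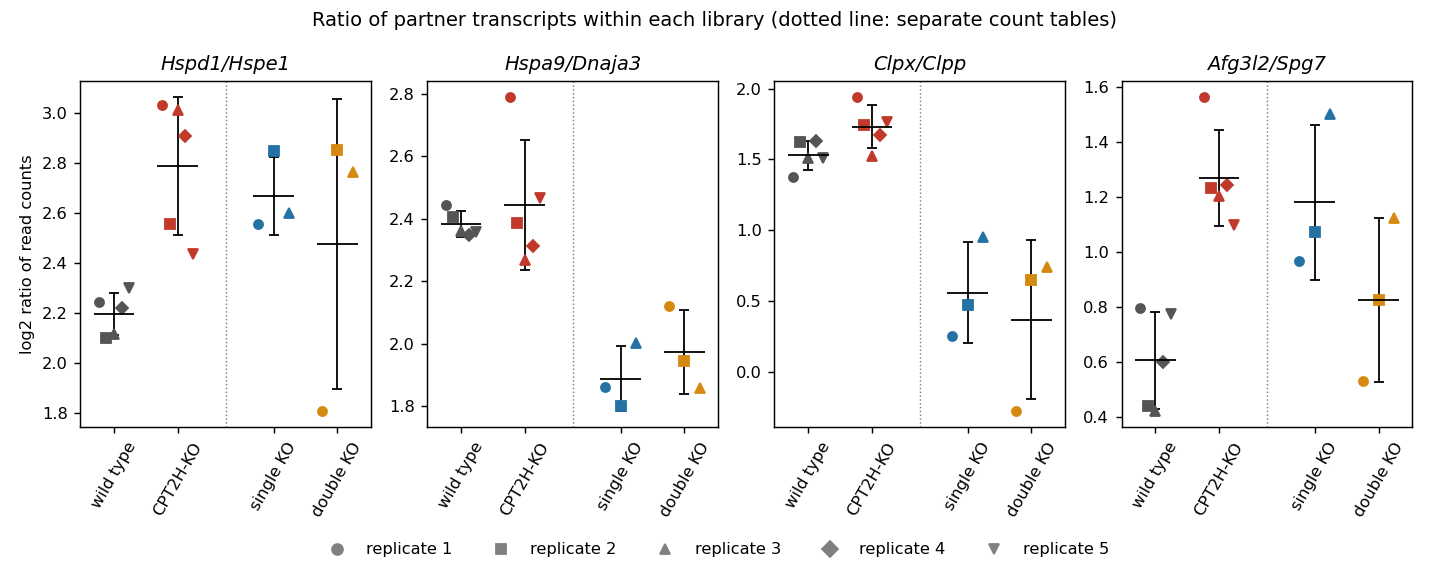
log2 ratio of read counts (vertical axes) between partner transcripts in each library, with mean ± SD per group; the dotted line separates the wild type and CPT2H-KO table from the single and double KO table. Hspd1 to Hspe1 and Afg3l2 to Spg7 do not overlap between wild type and CPT2H-KO libraries, and double KO replicate 1 is the lowest of its table for 3 pairs.

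Levels of different genes were ordered as CPM per kilobase of principal transcript. In wild type hearts the order was Hspa9 (102 ± 7.4, SD, n = 5), Hspd1 (48.5), Hspe1 (33.3), Dnaja3 (22.6), Lonp1 (19.1), Afg3l2 (16.2), Clpp (14.5), Clpx (14.3), Spg7 (11.4) and Htra2 (3.76 CPM per kilobase). The ranges of Afg3l2, Clpp and Clpx each overlapped that of the next gene in this order, and the other neighbours were separate. In CPT2H-KO hearts Lonp1 (30.1) and Afg3l2 (25.5 CPM per kilobase) stood between Hspe1 (31.3) and Dnaja3 (25.1 CPM per kilobase), and the ranges of neighbours among these 4 overlapped. Hspa9 (118.7) and Hspd1 (68.4 CPM per kilobase) remained the highest and Htra2 (4.16 CPM per kilobase) the lowest.

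Of 16 other mitochondrial chaperones and co-chaperones, 4 rose and 3 fell in CPT2H-KO hearts (median log2 fold change -0.04), shares near the 16.7% and 17.0% of all genes. The lower calls were 1 without wild type replicate 2, with an atrial covariate or in libraries with Y-linked transcripts only. Scaled by library totals alone, 1 was higher and 7 lower. Grpel2, a nucleotide exchange factor for Hspa9, measured 8.94, 9.56, 9.14, 8.63 and 9.17 CPM in wild type and 20.5, 15.4, 17.8, 17.7 and 18.2 CPM in CPT2H-KO libraries. That log2 fold change of 0.98 (SE 0.077, edgeR adjusted p = 1.5e-05) exceeded that of every one of the 10 members. Its paralogue Grpel1 rose less (log2 fold change 0.28), as did Phb2 (0.38), a prohibitin that binds the m-AAA protease, and Atad3a (0.48), an inner membrane ATPase. Dnajc19 (-0.39) and Dnajc15 (-0.31), J-domain proteins of the import motor, fell. Their groups overlapped, whereas those of the 4 rises did not. The lowest value in this list was -0.74, in a gene not named here.

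A list of other mitochondrial proteases and peptidases had 20 genes tested, not all of them proteases. Of these, 7 rose and 4 fell (median log2 fold change 0.06), against 16.7% and 17.0% of all genes. With an atrial covariate 5 were higher and 2 lower, and scaled by library totals alone 3 were higher and 8 lower. Afg3l1, a further m-AAA subunit and relative of Afg3l2, rose by 0.73 on the log2 scale. Nln (neurolysin) rose by 0.74, Prep by 0.58 and Lap3 by 0.40, although Prep and Lap3 are peptidases largely outside mitochondria. Oma1, the stress-activated protease of the inner membrane, fell by 0.46, and Endog, a nuclease rather than a protease, fell by 0.60. Of 15 general mitochondrial genes, 2 rose and 3 fell (median -0.11), shares near those of all genes. Called were Tomm40 (0.29) and Timm50 (0.20) of the import machinery, and Vdac3 (-0.49), Cycs (-0.33) and Idh3a (-0.24). With an atrial covariate 1 was higher and 1 lower, and scaled by library totals alone 0 were higher and 10 lower.

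Of 9 stress genes linked to mitochondrial protein quality control, transcription factors apart from Trib3, 5 rose and 0 fell. Of all genes, 16.7% were called higher and 17.0% lower. For 3 of the 9, every CPT2H-KO library lay above every wild type library, as for 11.5% of all genes. Trib3 was among the 5 and among the 3. The higher calls were 3 without wild type replicate 1, 2, 3 or 4 or CPT2H-KO replicate 5. Atf5, a factor linked to the mitochondrial unfolded protein response, measured 5.95, 4.12, 5.82, 5.61 and 4.92 CPM in wild type and 17.4, 11.2, 10.6, 11.8 and 10.4 CPM in CPT2H-KO libraries (log2 fold change 1.21, edgeR adjusted p = 0.000285). Atf4 measured 31.8, 28.2, 32.7, 26.7 and 35.5 CPM in wild type and 60.9, 52.3, 45.1, 47.1 and 74.1 CPM in CPT2H-KO libraries (log2 fold change 0.85, edgeR adjusted p = 0.00108). Neither gene's groups overlapped. Of 12 ATF4 target effectors tested (Fgf21 and Slc7a11 were not analysed here), 11 rose and 0 fell (median log2 fold change 1.84), among them Mthfd2 (3.59), Asns (3.19) and Aldh18a1 (1.59). The largest value among the 10 members was 0.66.

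Chaperones of other compartments differed in direction. Of all genes, 16.7% were called higher and 17.0% lower. Of 17 cytosolic heat shock genes, 5 rose and 0 fell (median log2 fold change 0.22), including Hspa4 (0.44) and Hspa4l (0.38), Hsp70 family exchange factors. Of 15 endoplasmic reticulum chaperones, 0 rose and 11 fell (median -0.42), including Hspa5 (BiP, -0.71), Calr (-0.69) and Canx (-0.42). Under scaling by library totals alone, the cytosolic list had 0 higher and 3 lower calls and the endoplasmic reticulum list 0 higher and 13 lower. The endoplasmic reticulum list had 7 lower calls without wild type replicate 3, 6 with an atrial covariate and 7 in libraries with Y-linked transcripts only, with 0 higher in each. In those last libraries the cytosolic list had 3 higher calls.

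**Figure D4:**
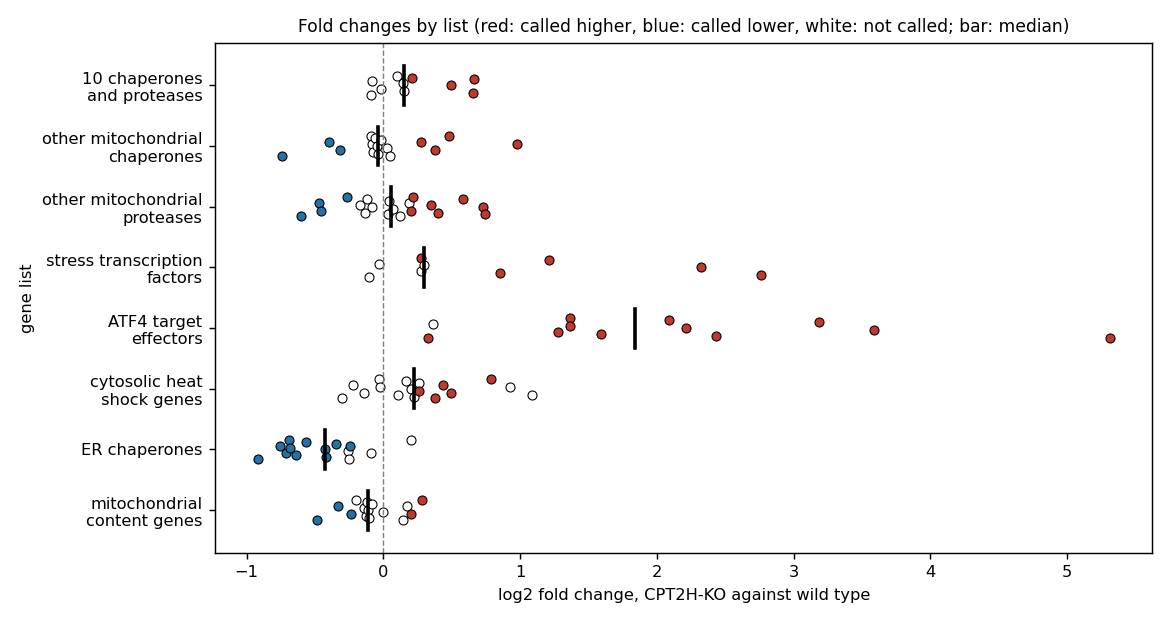
log2 fold change in CPT2H-KO against wild type (horizontal axis) for each gene of the 10 members and 7 further lists (rows). Red points were called higher, blue points lower and white points not called, and the bar is the list's median, 0.15 for the members, 1.84 for ATF4 target effectors and -0.42 for endoplasmic reticulum chaperones.

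Deletion of USP30 on top of CPT2 gave no call for any of the 10 transcripts. In double KO against single KO hearts edgeR called 0 of 12997 genes (0%), with 942 (7.25%) at an unadjusted p under 0.05. DESeq2 called 124 and limma-voom 0 genes, none of them a member. For the 10 members, 0 had an unadjusted edgeR p under 0.05, and 0 were separated between groups, against 11.8% of all genes. Their median log2 fold change was -0.03, against 0.00 for all genes. With 3 libraries a group, the 95% intervals remained wide, and their limits for the members ran from -0.64 to 0.51 on the log2 scale. Y-linked transcripts were near 0 in all 3 double KO libraries and in single KO replicate 3. Summed atrial markers were 2.93 to 3.58 CPM in single KO and 9.04 to 1433 CPM in double KO libraries. Summed red cell markers were 8120 to 10032 and 4551 to 7755 CPM, and summed endothelial markers 1283 to 1506 and 1024 to 1243 CPM. Sums of the other marker lists overlapped between groups. No member was called in a fit with an atrial covariate, but the fitted values moved there and with a sex term. Atrial marker level did not overlap between the groups, so that fit cannot tell it apart from genotype. With the atrial covariate the log2 fold change was -0.82 for Hspd1, -0.69 for Dnaja3, -0.44 for Hspa9, -0.72 for Clpx and -0.56 for Afg3l2 (edgeR adjusted p 0.0933 to 0.311), and 0.42 for Clpp and 0.31 for Spg7. With the sex term it was -0.32 for Hspd1, -0.33 for Dnaja3, -0.37 for Hspa9, -0.34 for Clpx and -0.42 for Afg3l2. Those sex-term values rested on replicate 3 as the only single KO library with Y-linked transcripts near 0. The values given for these genes in the next paragraphs come from the fit with neither term.

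**Figure D5:**
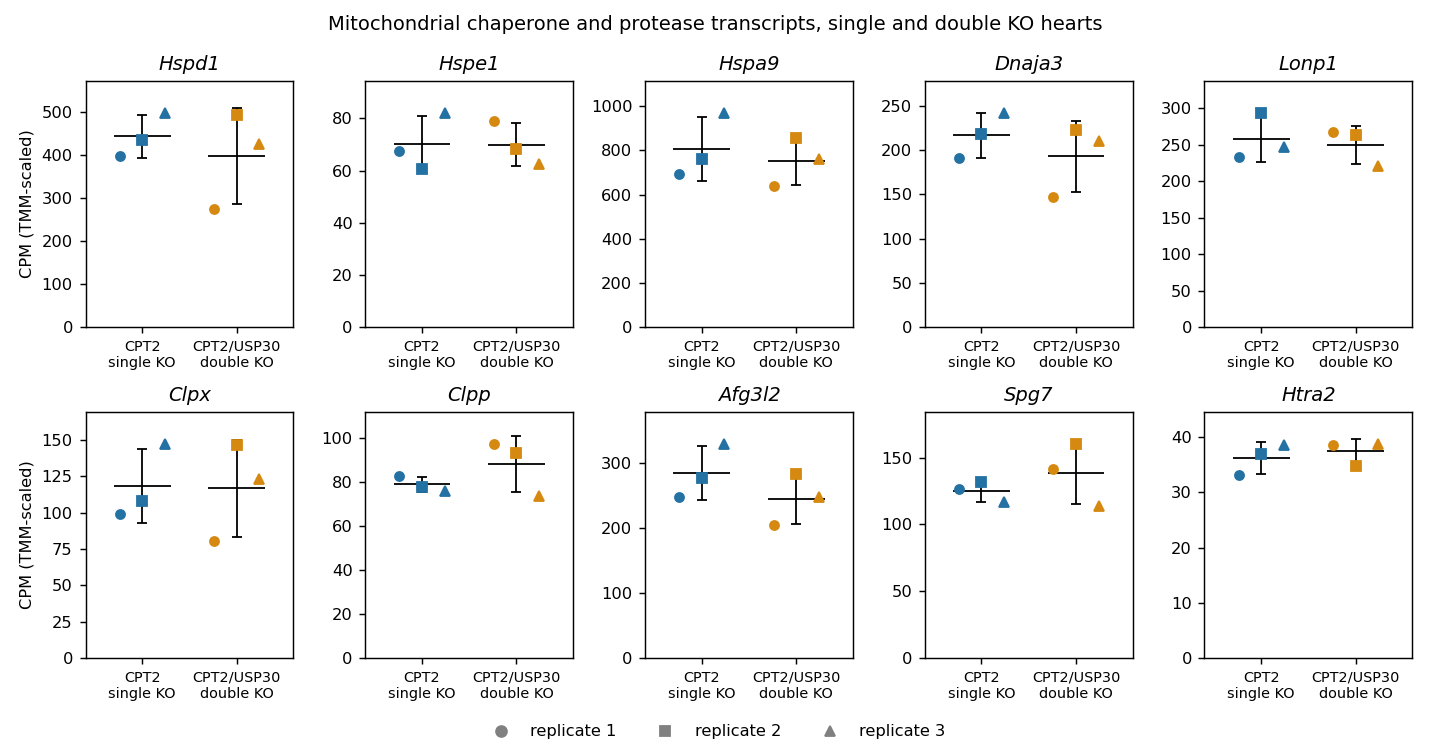
Level of each of the 10 transcripts in TMM-scaled CPM (vertical axes, from 0) in 3 CPT2 single KO (blue) and 3 CPT2/USP30 double KO (orange) libraries, with mean ± SD and a marker shape per replicate number. The groups overlap for every gene, and double KO replicate 1 is the lowest library for Hspd1, Hspa9, Dnaja3, Clpx and Afg3l2.

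Hspd1 measured 398, 436 and 498 CPM in single KO replicates 1 to 3 and 276, 494 and 426 CPM in double KO replicates 1 to 3. Double KO replicate 1 lay below all others and the rest were mixed. The log2 fold change was -0.16 (95% interval -0.64 to 0.33, edgeR adjusted p = 0.932), and 0.05 without that library. Hspe1 measured 67.7, 60.5 and 82.0 CPM in single KO and 78.8, 68.3 and 62.5 CPM in double KO libraries. Its group means were 70.1 ± 10.9 and 69.9 ± 8.3 CPM (SD, n = 3 each), with a 95% interval of -0.36 to 0.36 on the log2 scale.

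Hspa9 measured 693, 760.0 and 969 CPM in single KO and 637, 854 and 760.1 CPM in double KO libraries (log2 fold change -0.11, 95% interval -0.52 to 0.31). Dnaja3 measured 191, 218 and 242 CPM in single KO and 147, 222 and 209.6 CPM in double KO libraries (-0.17, 95% interval -0.59 to 0.25). For both genes single KO replicate 3 was the highest and double KO replicate 1 the lowest library.

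Lonp1 measured 233, 293 and 247 CPM in single KO and 267, 263 and 220.4 CPM in double KO libraries. No library stood apart (log2 fold change -0.04, 95% interval -0.39 to 0.31). Clpx measured 99.1, 108 and 147 CPM in single KO and 80.4, 147 and 123 CPM in double KO libraries (-0.02, 95% interval -0.54 to 0.51). Clpp measured 83.0, 78.1 and 76.1 CPM in single KO and 97.5, 93.6 and 73.9 CPM in double KO libraries (0.16, 95% interval -0.17 to 0.49). Double KO replicate 1 was the lowest library for Clpx and the highest for Clpp.

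Afg3l2 measured 247, 277 and 329 CPM in single KO and 205, 284 and 248 CPM in double KO libraries, the largest shift among the 10 (log2 fold change -0.21, 95% interval -0.61 to 0.18, edgeR adjusted p = 0.868). Without double KO replicate 1 it was -0.10. Spg7 measured 126, 132 and 116 CPM in single KO and 142, 160.1 and 114 CPM in double KO libraries (0.15, 95% interval -0.21 to 0.51). The lowest Spg7 library was a double KO and so were the highest 2. Htra2 measured 33.1, 36.9 and 38.6 CPM in single KO and 38.6, 34.8 and 38.8 CPM in double KO libraries (0.05, 95% interval -0.25 to 0.34). This was the tightest of the 10 intervals, and the Htra2 values of both groups were interleaved.

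Partner ratios in the second table overlapped for all 4 pairs. The log2 ratio of Hspd1 to Hspe1 was 2.56, 2.85 and 2.60 in single KO and 1.81, 2.85 and 2.77 in double KO libraries. Double KO replicate 1 had the lowest ratio of the 6 libraries. The difference between groups was -0.19, and 0.14 without it. The log2 ratio of Afg3l2 to Spg7 was 0.97, 1.07 and 1.5 in single KO and 0.53, 0.82 and 1.12 in double KO libraries (difference -0.36, exact permutation p = 0.3). Differences were -0.19 for Clpx to Clpp and 0.09 for Hspa9 to Dnaja3. All 4 adjusted exact p-values were 0.9, and the smallest unadjusted value that 3 against 3 allows is 0.1. Genes under 1000 bases had a median log2 fold change of 0.13 and those of 3500 bases or more one of -0.06 in this comparison, the reverse of the order in the first table.

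Per kilobase, Hspa9 (265 CPM per kilobase) and Hspd1 (183) were the highest and Htra2 (21.0) the lowest in single KO hearts, and the same genes held these places in double KO hearts (246, 164 and 21.7 CPM per kilobase). Afg3l2, Hspe1, Lonp1, Dnaja3 and Clpp stood together between 80.5 and 92.0 CPM per kilobase in single KO hearts, with overlapping ranges of neighbours. Spg7 (43.1) and Clpx (41.0 CPM per kilobase) followed.

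The related lists gave 0 edgeR calls in double KO hearts as well. Among cytosolic heat shock genes 4 of 17 had an unadjusted edgeR p under 0.05, and 5 of 17 were lower in every double KO than in any single KO library, against 5.07% of all genes (median log2 fold change -0.28). That median was -0.06 with an atrial covariate and -0.13 with a sex term, fits that carry the limits given above for these terms. Hsph1, an exchange factor among those 4, had a log2 fold change of -0.36 (95% interval -0.66 to -0.06, edgeR adjusted p = 0.557). Grpel2 measured 38.2, 45.5 and 47.8 CPM in single KO and 31.8, 38.6 and 36.2 CPM in double KO libraries (log2 fold change -0.30, 95% interval -0.63 to 0.03). Atf5 measured 74.0, 89.4 and 60.1 CPM in single KO and 82.6, 101 and 79.5 CPM in double KO libraries (0.23, 95% interval -0.16 to 0.63), and both genes overlapped between groups.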

How the data were processed

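RNA was measured in 16 mouse heart libraries. Extraction used PureLink columns and DNase, and libraries were stranded TruSeq total RNA with Ribo-Zero depletion, per the labels' protocols. The submitters' processing notes name bcl2fastq, HISAT2, mm10 and DESeq2 1.42.0. For the assignment of reads to genes, the program, annotation and strand setting were not stated in the labels. The authors deposited raw read counts per gene in 2 tables, whole numbers that were not normalised. No gene of the first table had a total under 151 counts. In the second, 521 genes were at 0 in every library, 1 row lacking a gene name was dropped, and no mitochondrially encoded gene was analysed here.

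Groups came from the sample titles and were compared within each table only. The test was that of edgeR 4.0.16 (R 4.3.3): filterByExpr, TMM scaling and the quasi-likelihood F test over all genes, with Benjamini-Hochberg adjustment and a threshold of 0.05. The same fit was tested on simulated counts. Standard errors follow from F, as the fitted log2 value over its square root. Partner ratios are log2 ratios of counts plus 0.5, tested with SciPy 1.17.1 by exact permutation of libraries. Lengths are those of the GENCODE principal transcript. No library was a duplicate: counts within a group differed by a chi-square per degree of freedom of at least 10.7. The members, the lists and the pairs were chosen with earlier results of these data known. Genes named are the 10 members, Cpt2, Usp30 and up to 6 members of each further list with the smallest p among those called in CPT2H-KO hearts. Alternatives were other scalings, no filter, DESeq2 1.42.0, limma-voom (limma 3.58.1), terms for replicate number, sex or atrial marker level, and leaving out each library.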

Additional observations from a re-analysis of the deposited data

Results flagged for a closer look

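A pair of the 20 groups of 5 libraries tested (10 genes in wild type and CPT2H-KO hearts) held a library far from the other 4, where chance flags about 1 in 20 groups. Lonp1 measured 122 CPM in CPT2H-KO replicate 1, against 74.5 to 83.1 CPM in the other CPT2H-KO libraries. Hspd1 measured 176 CPM in CPT2H-KO replicate 3, against 162 to 165 CPM in the others. Both genes were called higher with and without that library.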

How the results depend on the processing

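Over 21 alternatives for CPT2H-KO against wild type, Lonp1 (log2 fold change 0.38 to 0.73) and Afg3l2 (0.39 to 0.70) were called higher in all, and Hspd1 in 20. Members called numbered 3 or 4 throughout, but were not always the same genes. Scaled by library totals alone, they were Lonp1 and Afg3l2 (higher) and Clpp and Spg7 (lower). Without CPT2H-KO replicate 1, Dnaja3 was called and Hspa9 was not. Genes called overall numbered 3682 to 4787 without any 1 library, 3118 with an atrial covariate and 3066 in libraries with Y-linked transcripts only. That last alternative and scaling by totals of nuclear genes were chosen after seeing the data. Scaled by library totals alone, 825 genes were called higher and 4831 lower, against 2360 and 2398. Values then were -0.053 for Hspa9, -0.11 for Dnaja3, -0.17 for Clpx, -0.13 for Htra2, -0.36 for Clpp and -0.28 for Spg7. Spg7 changed sign with TMM on nuclear genes (0.0070) and ran from -0.060 to 0.034 without any 1 library. Hspe1 changed sign with the atrial covariate (0.030) and in libraries with Y-linked transcripts (0.064). Without any 1 library the Clpx to Clpp difference ran from 0.15 to 0.25 and that of Hspa9 to Dnaja3 from -0.025 to 0.11. The causes were not tested.

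For double against single KO, 0 members were called in all 14 alternatives. Genes called numbered 124 with DESeq2, 329 with the atrial covariate, and 0 to 114 without any 1 library (4 without single KO replicate 3, 114 without double KO replicate 1). Hspe1 was 0.00071 with limma-voom and 0.17 with the atrial covariate, and Lonp1 was 0.14 with that covariate. With a sex term Lonp1 was 0.016 and Htra2 -0.046. Those sex-term values rested on replicate 3 as the only single KO library with Y-linked transcripts near 0. The atrial covariate moved the matrix chaperone median from -0.13 to -0.56 and Hspd1 from -0.16 to -0.82. These shifts went beyond any removal of 1 library. Atrial marker level and genotype cannot be told apart there, since the groups did not overlap in it. Without any 1 library, values ran from -0.34 to 0.050 for Hspd1, -0.10 to 0.11 for Hspe1, -0.22 to 0.034 for Hspa9, -0.13 to 0.056 for Lonp1, -0.22 to 0.19 for Clpx and -0.029 to 0.095 for Htra2. Ratio differences then ran from -0.37 to 0.13 for Clpx to Clpp and from -0.38 to 0.14 for Hspd1 to Hspe1. The causes were not tested.

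Same-numbered libraries did not deviate together in every pair (correlations of deviations -0.09 to 0.22 in the first table and -0.20 to 0.16 in the second, with 2 of 5 and 0 of 3 numbers closest to their own), so replicate numbers were not treated as pairing. With a replicate block, 4179 genes and 3 members were called in CPT2H-KO hearts, and 1 gene and 0 members in double KO hearts, where Hspe1 was 0.0022. Hspa9 was then 0.21 in CPT2H-KO hearts (edgeR adjusted p = 0.0925).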
